A study of Mus musculus with 8 samples.

Results

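Endothelial and vessel identity genes were examined in whole mouse embryos of 3 genotypes. The 36 genes were listed by name. They encode surface and junction proteins of vessel walls, endothelial transcription factors, the angiopoietins and their receptors, signalling and blood-clotting proteins, and factors of arterial and venous identity. A gene probe was counted when its accession was a RefSeq transcript of a listed gene. This gave 34 probes for 32 of the 36 genes, out of 34967 gene probes on the array, which named 13971 genes in all. No probe was matched to Eng, Efnb2, Gja5 or Aplnr, which are not analysed here. The probes of Cdh5 and Angpt1 were not above background on all arrays of any genotype, so 30 genes were tested, by 32 probes.

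The parents carried an allele that lowers expression of Ott1 (now named Rbm15), a gene for a nuclear RNA-binding protein. Embryos were taken at E11.5, in mid-gestation, and genotyped as wild type (2 embryos, numbers 11 and 13), heterozygous (3 embryos, numbers 3, 10 and 15) or homozygous for the allele (3 embryos, numbers 2, 7 and 16). RNA of each whole embryo was read on its own one-colour CodeLink array, so the replicates are separate embryos. The sources used here do not give the make-up of the allele, the strain, or whether the embryos were littermates. No probe was matched to Rbm15, so the targeted gene could not be checked. A whole embryo holds all of its tissues, and endothelium is a small part of them, so fewer endothelial cells and less RNA per cell cannot be told apart.

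Endothelial cells line every blood vessel. VE-cadherin, PECAM1 and claudin 5 hold them together at their junctions, and transcription factors of the ETS and SOXF families maintain their identity. Angiopoietin 1, made mostly by cells around vessels, activates the receptor TIE2 (Tek) on endothelium and stabilises vessels, while angiopoietin 2, made by endothelium itself, can oppose it during remodelling. Arterial and venous endothelium are set apart early, arteries by Notch signalling and ephrin B2, and veins by the nuclear receptor Nr2f2 and EphB4. At mid-gestation the first vascular networks are being remodelled into arteries, veins and capillaries.

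RefSeq promoter sequences (assembly GRCm38.p6) were found for 16 of the 36 genes. The 250 bases upstream of the start are shown for both angiopoietin receptors, the arterial gene Gja4 and the venous gene Nr2f2. The genotype means of Gja4 and Nr2f2 were ordered upward from wild type through heterozygous to homozygous. So were those of 46.7% of the tested members and 20.1% of all probes. On the probe that stands for Nr2f2 the genotypes overlapped. Capitals mark each GGAA, the core bound by ETS factors such as the members Erg and Ets1, on either strand (TTCC where it lies on the other). The strand is that of the gene and the sequence runs 5′ to 3′.
Tek, chr4:94739039-94739288, plus strand: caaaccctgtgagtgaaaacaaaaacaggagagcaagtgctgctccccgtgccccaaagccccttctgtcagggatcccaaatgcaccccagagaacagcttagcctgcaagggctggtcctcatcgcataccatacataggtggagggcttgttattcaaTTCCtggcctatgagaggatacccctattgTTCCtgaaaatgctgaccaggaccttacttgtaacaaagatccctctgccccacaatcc
Tie1, chr4:118489850-118490099, minus strand: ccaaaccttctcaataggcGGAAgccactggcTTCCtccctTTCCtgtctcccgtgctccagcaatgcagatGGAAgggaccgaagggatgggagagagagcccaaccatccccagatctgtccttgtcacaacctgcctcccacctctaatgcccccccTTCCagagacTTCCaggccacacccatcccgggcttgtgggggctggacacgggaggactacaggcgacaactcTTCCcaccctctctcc
Gja4, chr4:127314040-127314289, minus strand: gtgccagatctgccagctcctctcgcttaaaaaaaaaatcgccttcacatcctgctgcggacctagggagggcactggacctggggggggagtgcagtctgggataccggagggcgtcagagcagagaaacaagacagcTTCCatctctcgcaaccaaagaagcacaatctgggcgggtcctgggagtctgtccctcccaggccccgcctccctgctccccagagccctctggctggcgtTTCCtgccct
Nr2f2, chr7:70366747-70366996, minus strand: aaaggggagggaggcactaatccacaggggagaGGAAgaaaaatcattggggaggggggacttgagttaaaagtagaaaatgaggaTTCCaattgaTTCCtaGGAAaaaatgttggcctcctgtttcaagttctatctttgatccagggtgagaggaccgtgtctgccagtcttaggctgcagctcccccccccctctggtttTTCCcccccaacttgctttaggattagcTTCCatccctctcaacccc
The core occurred 2 times upstream of Tek, 7 times upstream of Tie1, 2 times upstream of Gja4 and 6 times upstream of Nr2f2. It was present in 14 of the 16 members (87.5%) and in 93.4% of 27025 promoters of the same length, so its presence does not set the members apart. The SOX core ACAAAG, searched on both strands, was present in 4 of the 16, among them Tek, and in 16.5% of all promoters. The cores can share a single G where ACAAAG runs into GGAA. A match describes the letters and is not a shown binding site.

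All levels below are log2 of the background-corrected intensity after quantile normalization, and all differences are on that log2 scale. A gene passed where its limma p-value, after Benjamini-Hochberg adjustment across every tested probe, was under 0.05. Before normalization the arrays of homozygous embryos were the brightest, with median intensities of 61.45, 61.52 and 87.93 in embryos 2, 7 and 16 against 48.28 to 57.63 elsewhere. Brightness and the homozygous genotype cannot be told apart, and the array of embryo 16 stands apart from the rest. The mean of 2 Y-linked probes was 4.04 in embryo 16, 5.03 and 4.34 in heterozygous embryos 3 and 15, and 6.82 to 7.11 in the 5 others.

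Homozygous embryos were first set against the 5 other embryos. None of the 30 tested members passed, against 0.107% of all tested probes (25 of 23388: 0.0299% higher and 0.077% lower). At an unadjusted p under 0.05, 8 members were higher and 3 were lower in homozygous embryos, that is 26.7% and 10% of the members, against 6.63% and 13.4% of all probes. The smallest adjusted p of a member was 0.121, for Vwf. The values of 7 members lay above those of every other embryo in all 3 homozygous embryos (Vwf, Cd93, Sox7, Plvap, Acvrl1, Sox18 and Pecam1), which is 23.3% of the members against 4.96% of all probes. The values of Thbd and Angpt2 lay below those of every other embryo, 6.67% of the members against 9.69% of all probes. A positive difference was held by 22 of the 30, against 39.8% of all probes. The median member difference was 0.13 and the median over all probes -0.06, a distance of 0.19. Only members that passed the background filter enter these counts.

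These counts depended on how the arrays were scaled. Under median scaling 3 members were higher without overlap (Cd93, Sox7 and Vwf) against 1.82% of all probes, and in the deposited scaled values 2 were (Sox7 and Vwf) against 1.45%. On the lower side there were 2 members against 16.3% of all probes under median scaling, and 4 (Cldn5, Ets1, Angpt2 and Thbd) against 17.8% in the deposited values. The median of all probes was -0.22 and -0.25 in those settings, and the median member lay 0.23 above it in each.

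**Figure D1:**
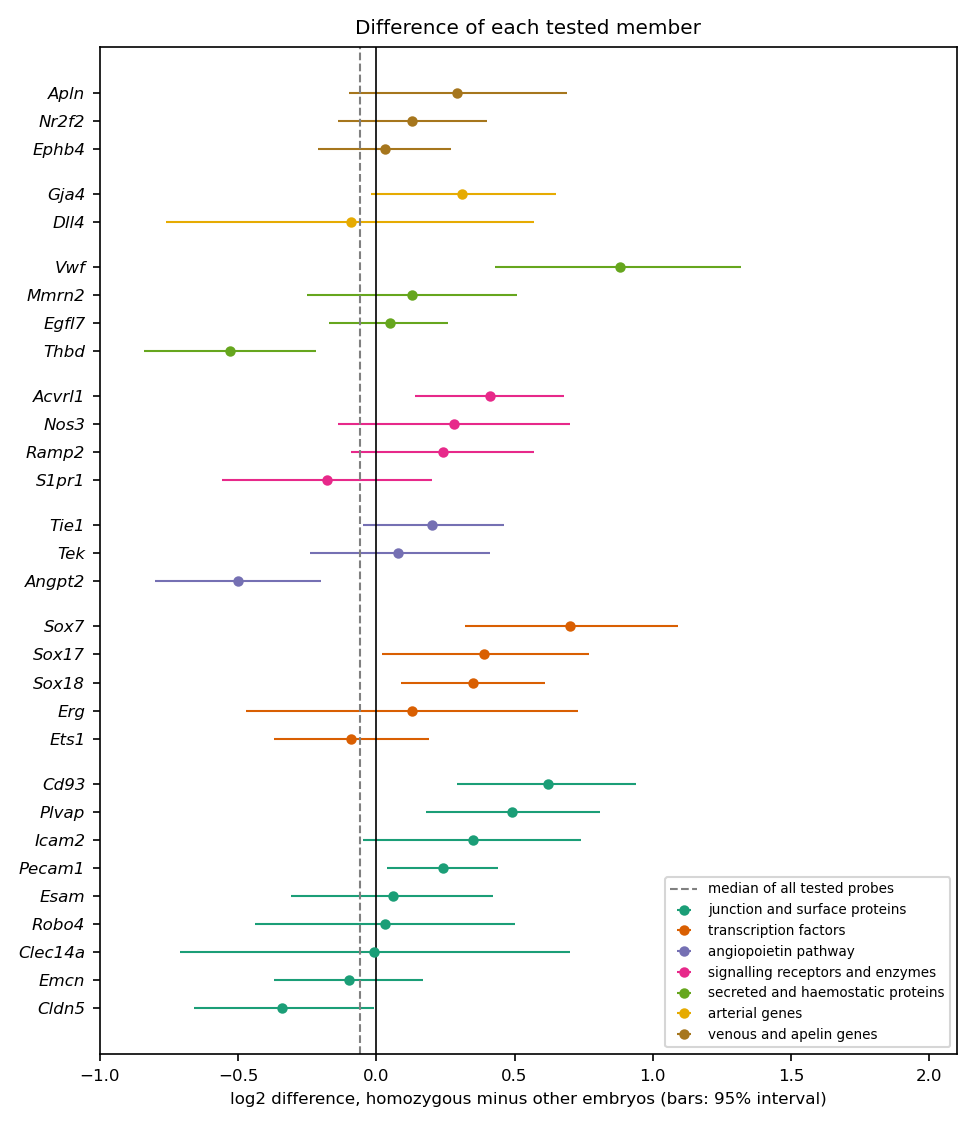
Log2 difference between the 3 homozygous and the 5 other embryos for each of the 30 tested members, grouped by role. Points are limma estimates, bars their 95% intervals, and the dashed line the median of all tested probes (-0.06). Vwf lies farthest to the right (0.88) and Thbd farthest to the left (-0.53).

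Among the surface and junction proteins, 3 of the 9 tested genes were higher without overlap and 0 were lower. Of all probes, 4.96% were higher and 9.69% lower. Cd93, a lectin-like receptor of endothelium that some myeloid cells also carry, was at 8.54 and 8.97 in the wild type embryos, 9.04, 8.80 and 9.07 in the heterozygous and 9.33, 9.52 and 9.65 in the homozygous. Every homozygous value lay above the highest other value. The difference was 0.62 (SE 0.14, 1.54-fold higher, limma adjusted p = 0.124). Plvap, which forms the diaphragms of fenestrated capillaries, was at 9.44 and 9.70 in wild type, 9.53, 10.05 and 9.75 in heterozygous and 10.18, 10.14 and 10.24 in homozygous embryos. The homozygous embryos lay close together, and heterozygous embryo 10 came nearest to them. The difference was 0.49 (SE 0.14, 1.41-fold higher, limma adjusted p = 0.154). Its other probe was at 7.83, 7.29 and 7.66 in homozygous embryos against 6.88 to 7.48 in the others, so there the groups overlapped.

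Pecam1, the adhesion molecule most widely used to mark endothelium, was at 7.26 and 7.14 in wild type, 7.07, 7.03 and 7.11 in heterozygous and 7.37, 7.29 and 7.42 in homozygous embryos. The groups did not overlap; embryo 7 at 7.29 and wild type embryo 11 at 7.26 came nearest. The difference was 0.24 (SE 0.09, 1.18-fold higher, limma adjusted p = 0.204), with 0.10 after median scaling and 0.07 in the deposited scaled values. Cldn5, the main claudin of endothelial tight junctions, went the other way. It was at 9.40 and 9.51 in wild type, 9.31, 9.76 and 9.57 in heterozygous and 9.44, 8.95 and 9.13 in homozygous embryos, with a difference of -0.34 (SE 0.14, limma adjusted p = 0.236). Homozygous embryo 2 overlapped the others. Scaling moved these values too: under median scaling and in the deposited scaled values, respectively, Cd93 was at 0.37 and 0.34, Plvap at 0.20 and 0.17, and Cldn5 at -0.59 and -0.63.

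The other 5 tested surface genes overlapped between homozygous and other embryos. The sialomucin gene Emcn was at 8.76, 9.07 and 9.18 in homozygous embryos and 8.99 to 9.26 elsewhere. The junction gene Esam had a homozygous mean of 9.98 ± 0.34 (SD, n = 3) against 9.93 ± 0.15 (SD, n = 5) in the rest. For the guidance receptor gene Robo4 the same means were 7.05 ± 0.42 and 7.02 ± 0.25. The lectin gene Clec14a ran from 5.87 in embryo 7 to 7.17 in embryo 16, and homozygous embryo 2, at 5.90, was next to lowest, so the homozygous embryos held both ends of its range. The adhesion gene Icam2 was at 8.13, 8.32 and 8.87 in homozygous embryos 2, 7 and 16, and at 7.91 to 8.30 elsewhere. The probe of Cdh5, the VE-cadherin gene, was above background only in 1 homozygous embryo, so its level is known only as not well above background.

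The SOXF transcription factors Sox7, Sox17 and Sox18, which act together in vessel formation and in arterial identity, were all higher in homozygous embryos on average. Sox7 was at 7.46 and 7.41 in wild type, 7.49, 7.63 and 7.43 in heterozygous and 7.85, 8.06 and 8.65 in homozygous embryos. The 5 others lay between 7.41 and 7.63, and embryo 16 was the highest by a wide step. The difference was 0.70 (SE 0.17, 1.63-fold higher, limma adjusted p = 0.131), and 0.48 without embryo 16.

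Sox18 was at 8.56 and 8.53 in wild type, 8.55, 8.95 and 8.66 in heterozygous and 8.97, 8.96 and 9.06 in homozygous embryos. Heterozygous embryo 10, at 8.95, came next to the lowest homozygous embryo, at 8.96. The difference was 0.35 (SE 0.11, 1.27-fold higher, limma adjusted p = 0.181), with 0.11 after median scaling and 0.074 in the deposited scaled values. Sox17 overlapped, at 7.95, 7.75 and 8.43 in homozygous embryos and 7.43 to 7.92 in the others, and its difference of 0.39 (SE 0.17, limma adjusted p = 0.238) was 0.21 without embryo 16, 0.25 with array weights, 0.21 under median scaling and 0.17 in the deposited scaled values. Of the ETS factors, Ets1 had a homozygous mean of 6.59 ± 0.19 (SD, n = 3) against 6.68 ± 0.15 (SD, n = 5). Erg was at 5.94 in embryo 16, and at 4.77 and 4.97 in homozygous embryos 2 and 7, within the 4.77 to 5.42 of the others.

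**Figure D2:**
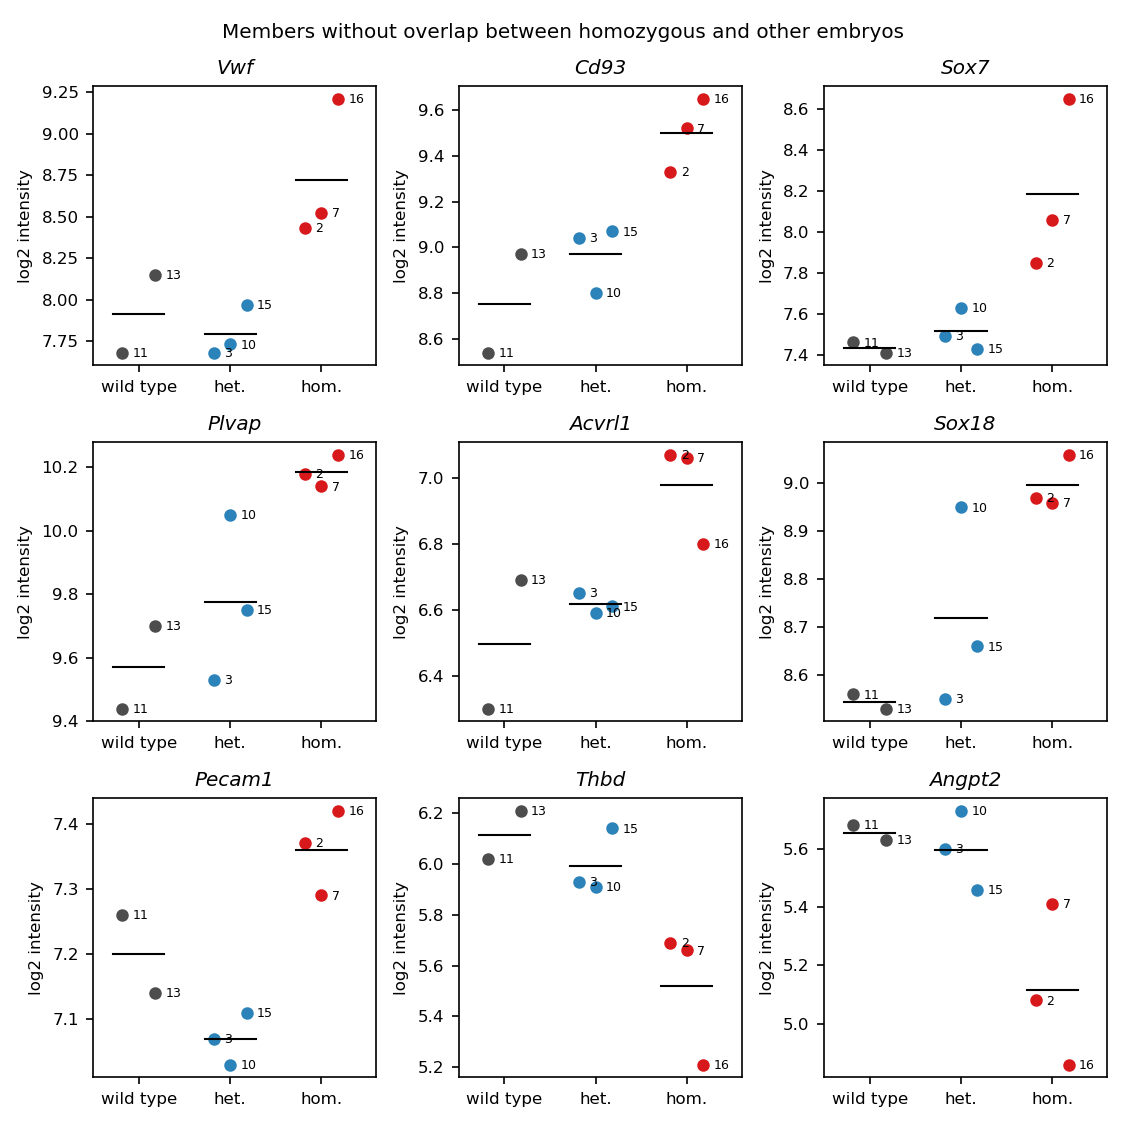
Log2 normalized intensity in each embryo for the 9 members whose homozygous values do not overlap those of the other embryos. Points are embryos, labelled by number, and lines are genotype means; each panel has its own scale. Embryo 16 is the highest or lowest point for 8 of the 9, Acvrl1 being the exception.

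In the angiopoietin pathway 3 of 4 genes were tested. The ligand gene Angpt2 was at 5.68 and 5.63 in wild type, 5.60, 5.73 and 5.46 in heterozygous and 5.08, 5.41 and 4.86 in homozygous embryos. Homozygous embryo 7 lay just under heterozygous embryo 15, and embryo 16 lay lowest. The difference was -0.50 (SE 0.13, limma adjusted p = 0.141). With normexp background correction and an added offset of 50 it was -0.21 (SE 0.08, limma adjusted p = 0.168). An added offset narrows log2 differences of dim spots by arithmetic. The stabilising ligand gene Angpt1 was below background on all 8 arrays. The receptor gene Tek had a homozygous mean of 8.07 ± 0.23 (SD, n = 3) against 7.98 ± 0.19 (SD, n = 5), with overlap. Its partner receptor gene Tie1 was at 8.70 and 8.41 in wild type, 8.44 and 8.50 in heterozygous and 8.60, 8.79 and 8.75 in homozygous embryos. Tie1 was missing in embryo 3, whose spot was marked, and the fit used 7 embryos. The phosphatase gene Ptprb, whose product VE-PTP acts on TIE2, was at 8.86, 8.99 and 9.27 in homozygous embryos and 8.67 to 8.84 in the others, with a limma adjusted p of 0.193.

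Among signalling receptors and enzymes, Acvrl1, the endothelial receptor for BMP9 and BMP10, was at 6.30 and 6.69 in wild type, 6.65, 6.59 and 6.61 in heterozygous and 7.07, 7.06 and 6.80 in homozygous embryos. Here embryo 16 was the homozygous embryo nearest to the others, and wild type embryo 11 lay lowest. The difference was 0.41 (SE 0.12, 1.33-fold higher, limma adjusted p = 0.161). With normexp background correction and the offset of 50 it was 0.27 (SE 0.08, limma adjusted p = 0.138). Ramp2, the partner of the adrenomedullin receptor, was at 9.95 and 9.98 in wild type, 9.97, 10.21 and 10.23 in heterozygous and 10.04, 10.26 and 10.63 in homozygous embryos. Those groups overlapped through embryo 2. Nos3, the endothelial nitric oxide synthase, was at 5.62, 5.40 and 6.18 in homozygous and 5.26 to 5.74 in the other embryos. The sphingosine phosphate receptor gene S1pr1 had a homozygous mean of 5.17 ± 0.28 (SD, n = 3) against 5.35 ± 0.23 (SD, n = 5).

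Among the genes of blood clotting, Vwf, which tethers platelets and is stored in endothelium and megakaryocytes, was at 7.68 and 8.15 in wild type, 7.68, 7.73 and 7.97 in heterozygous and 8.43, 8.52 and 9.21 in homozygous embryos. All homozygous values lay above the others, with embryo 16 farthest. The difference was 0.88 (SE 0.20, 1.84-fold higher, limma adjusted p = 0.121), and 0.65 without embryo 16. Thbd, thrombomodulin, which restrains clotting at the endothelial surface, was at 6.02 and 6.21 in wild type, 5.93, 5.91 and 6.14 in heterozygous and 5.69, 5.66 and 5.21 in homozygous embryos. All homozygous values lay below the others. The difference was -0.53 (SE 0.14, limma adjusted p = 0.14). With normexp background correction and the offset of 50 it was -0.26 (SE 0.08, limma adjusted p = 0.139).

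The secreted factor gene Egfl7 and the matrix protein gene Mmrn2 showed no separation of homozygous from other embryos. Egfl7 had a homozygous mean of 9.52 ± 0.09 (SD, n = 3) against 9.48 ± 0.10 (SD, n = 5). Mmrn2 was at 6.81 and 6.61 in wild type, 6.25, 6.26 and 6.17 in heterozygous and 6.71, 6.35 and 6.60 in homozygous embryos, so its lowest values were all heterozygous. Markers of megakaryocytes, the other source of Vwf, had a summed intensity over 10 genes of 3483 to 4097 in wild type, 2551 to 4547 in heterozygous and 3004 to 4615 in homozygous embryos, and these ranges overlap. Of the 10 tested, 7 had a positive difference (39.8% of all probes did) and 0 passed.

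Arterial and venous members were described by genotype. Of the arterial genes, Gja4, a connexin of arterial endothelium, was at 7.33 and 7.57 in wild type, 7.65, 7.99 and 7.78 in heterozygous and 7.99, 7.88 and 8.07 in homozygous embryos. Both wild type values lay below all 6 others. The Notch ligand gene Dll4 was at 5.32 and 5.01 in wild type, 4.93, 5.17 and 4.97 in heterozygous and 5.37, 5.49 and 4.10 in homozygous embryos. Embryos 7 and 2 had its highest values and embryo 16 its lowest, a spread of 0.77 (SD, n = 3) among homozygous embryos against 0.16 (n = 5) among the others.

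Of the venous genes, the EphB4 receptor gene had a homozygous mean of 8.18 ± 0.13 (SD, n = 3) against 8.14 ± 0.12 (SD, n = 5). Nr2f2 has a brighter and a dimmer probe, whose accessions name different transcripts, and they disagreed. The brighter probe was at 11.49 and 11.76 in wild type, 11.83, 11.53 and 11.62 in heterozygous and 11.71, 11.96 and 11.65 in homozygous embryos, which overlap throughout. The dimmer probe was at 6.86 and 6.93 in wild type, 7.65, 7.29 and 7.53 in heterozygous and 7.90, 7.89 and 7.72 in homozygous embryos. On this probe the 3 genotypes did not overlap one another, with limma adjusted p-values of 0.111 for homozygous against wild type, 1 for heterozygous against wild type and 0.403 for homozygous against heterozygous. This probe was singled out after its values were seen, and the difference between the probes was not tested. Apln, the ligand of the apelin receptor made by sprouting endothelium, was at 7.18 and 6.98 in wild type, 7.12, 7.79 and 7.33 in heterozygous and 7.47, 7.60 and 7.65 in homozygous embryos. Its highest value was in heterozygous embryo 10.

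The pairwise comparisons share arrays, so they are given side by side and not set against each other. None of the 30 members passed in any of them. For homozygous against wild type, 0.0342% of all probes passed (0.00855% higher and 0.0257% lower), and 12 members were higher and 3 lower without overlap (40% and 10%, against 14.3% and 25.2% of all probes). At an unadjusted p under 0.05, 8 were higher and 2 lower (26.7% and 6.67%, against 5.93% and 9.36%), and 21 had a positive difference (70%, against 40.1%). For homozygous against heterozygous, 0.0214% of all probes passed (0% higher and 0.0214% lower). Without overlap, 9 members were higher and 2 lower (30% and 6.67%, against 6.44% and 12.7%). At an unadjusted p under 0.05, 7 were higher and 2 lower (23.3% and 6.67%, against 3.78% and 7.85%), and 23 had a positive difference (76.7%, against 40%). For heterozygous against wild type, 0% of all probes passed in limma and 538 of 23387 had an unadjusted p under 0.05. There 1 member was higher without overlap, Gja4, and 2 were lower without overlap, Mmrn2 and Pecam1 (3.33% and 6.67%, against 9.2% and 10.5%). At an unadjusted p under 0.05, 1 was higher and 1 lower (3.33% each, against 1.26% and 1.04%), and 16 had a positive difference (53.3%, against 48.5%). The median member difference was 0.14 against wild type, 0.15 against heterozygous and 0.01 for heterozygous against wild type, and the median of all probes -0.07, -0.06 and -0.01. In the ordering of genotype means, 14 of 30 members (46.7%) were ordered upward from wild type through heterozygous to homozygous, against 20.1% of all probes, and 5 (16.7%) downward, against 31.6%.

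**Figure D3:**
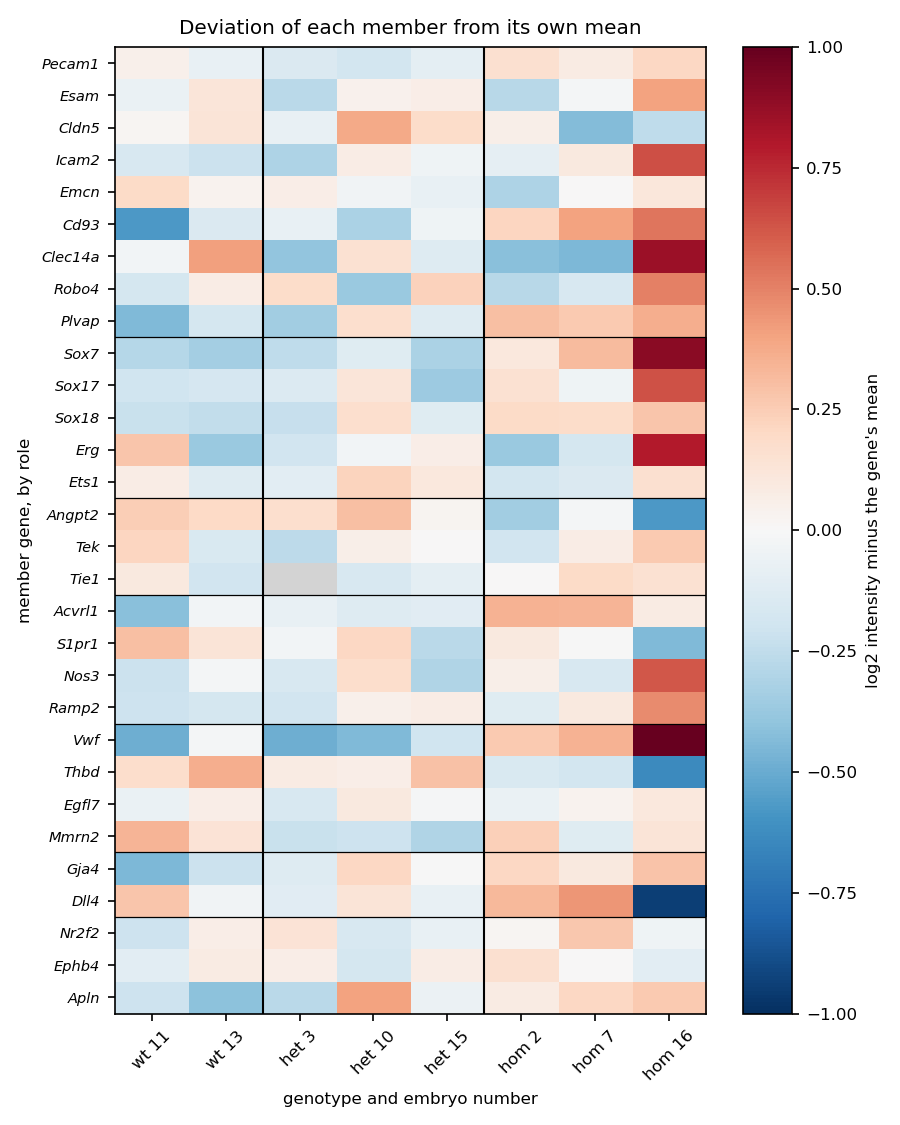
Log2 normalized intensity of each tested member minus its own mean over the embryos, by role (rows) and embryo (columns); gray is missing, and the colour scale ends at -1 and 1. The column of embryo 16 holds the strongest colours in both directions, red for Vwf and Sox7 and blue for Dll4.

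Embryo 16 set the upper end of many members. Of the 29 members measured on all arrays, it had the highest value of the 8 embryos in 17 (58.6%) and the lowest in 4 (13.8%), while over 21788 probes it had the highest value in 16.7% and the lowest in 38.3%. Homozygous embryos 2 and 7 had the highest value in 2 members each. The median deviation of a member from its own mean was 0.27 in embryo 16, 0.06 in embryo 2 and 0.04 in embryo 7. It was 0.07 in heterozygous embryo 10 and -0.14 to -0.03 in the 4 others. Without embryo 16, the 7 members named above were still higher without overlap, joined by Dll4 (26.7% of members, against 9.47% of all probes). Without it 4 members were lower, Clec14a, Ets1, Angpt2 and Thbd (13.3%, against 13.1%), and the median member difference was 0.10.

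Brighter probes had higher differences in general. The median difference was -0.16 for probes with a mean level under 6, -0.09 from 6 to 8, -0.03 from 8 to 10 and -0.01 above 10. Of the 10 members with a mean level from 6 to 8, 3 were higher without overlap (4.75% of all probes at that level), and of the 12 from 8 to 10, 4 were (7.01%). Angpt2 and Thbd were both among the 6 members under 6, where 9.58% of all probes were lower without overlap.

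Other genes of endothelium and its Notch, VEGF and BMP signalling were listed for comparison, and 29 of 36 were tested. None passed. At an unadjusted p under 0.05, 8 were higher and 3 lower (27.6% and 10.3%, against 6.63% and 13.4% of all probes). Without overlap, 7 were higher and 3 lower (24.1% and 10.3%, against 4.96% and 9.69%), so the lower counts were near the share over all probes. The median difference of these genes was 0.08, and their counts are given for the main scaling only. The inhibitory SMAD gene Smad6 was at 8.89, 8.64 and 8.99 in homozygous embryos and 8.08 to 8.45 in the others (limma adjusted p = 0.111). Ece1, which activates endothelin 1, was at 11.18, 11.12 and 11.23 against 10.58 to 10.80 (limma adjusted p = 0.109). The ETS factor gene Fli1 was lower in all 3 homozygous embryos, at 7.49, 7.21 and 7.46 against 7.59 to 7.80 (limma adjusted p = 0.185). Tgfbr2 and Gata2 were also lower without overlap, with differences of -0.48 and -0.35 (limma adjusted p = 0.169 and 0.183). The VEGF receptor gene Kdr was at 10.13, 10.38 and 10.65 against 9.97 to 10.19, which overlap. The 5 lymphatic genes had a median difference of -0.45. Of them 3, Prox1, Lyve1 and Ccl21a, were lower at an unadjusted p under 0.05 (60%, against 13.4% of all probes). Lower without overlap were 0 (9.69% of all probes were). Against wild type 4 of the 5 were lower without overlap (80%, against 25.2%), and against heterozygous 0 were (12.7%). In each of these comparisons 0 passed. Lyve1 was above background in 2 of 3 homozygous and 4 of 5 other embryos, so the filter let it in through the genotype where it was highest.

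Markers of neighbouring cell types are given beside these values. The summed intensity of 11 mural genes, which mark pericytes and smooth muscle, was 5635 to 6342 in wild type, 5783 to 6531 in heterozygous and 5410 to 8284 in homozygous embryos, and 0 of 11 passed. Macrophage genes, of interest because myeloid cells also carry Cd93 and Pecam1, had low sums in every homozygous embryo and in heterozygous embryo 10. The summed intensity over 7 genes was 1021 and 1136 in wild type, 1010, 250 and 1437 in heterozygous and 412, 407 and 357 in homozygous embryos. All 8 tested had a negative difference from the other embryos, and 0 passed there. Against wild type all 8 were lower without overlap (25.2% of all probes were), and Fcgr1 passed, with a difference of -2.20 (SE 0.23, limma adjusted p = 0.0484). Mrc1, C1qa and Fcgr1 were above background in 2, 2 and 1 of the 3 homozygous embryos. Mrc1 and Fcgr1 entered the test only through wild type, and C1qa only through wild type and heterozygous, where they were high. The counts of these genes are therefore partly set by the filter. C1qb, missing in embryo 16, was above background in 2 homozygous embryos and in all 5 others, and also entered through the other genotypes. Cd93 and Pecam1 were higher in the homozygous embryos than in any other, Pecam1 by little (7.29 in embryo 7 against 7.26 in embryo 11). Heterozygous embryo 10, with the lowest macrophage sum, had Cd93 at 8.80 and Pecam1 at 7.03. The part of myeloid cells in these values was not tested. Hypoxia-responsive genes had a summed intensity over 10 genes of 18269 to 21422 in wild type, 19069 to 25222 in heterozygous and 27058 to 41395 in homozygous embryos, highest in embryo 16. All 10 had a positive difference (39.8% of all probes did), and 7 were higher without overlap (4.96%). The adrenomedullin gene Adm is in this list and among the other endothelial genes above, and is counted in both. The part of hypoxia-responsive genes in the endothelial values was not tested.

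**Figure D4:**
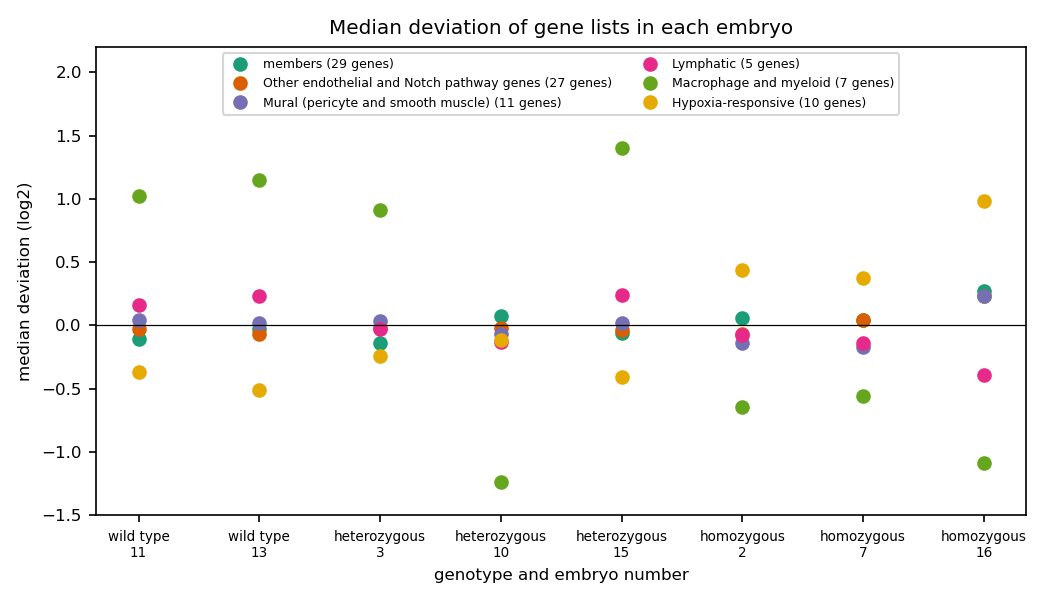
Median over each gene list of the log2 deviation from the gene's own mean, for each embryo (1 point per list and embryo). In embryo 16 the members stand at 0.27, hypoxia-responsive genes at 0.98 and macrophage genes at -1.09.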

How the data were processed

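Per the labels, RNA of 8 whole embryos was hybridised to one-colour CodeLink arrays. The intensity in the deposited array files equals, per the file headers and the values, each spot's mean less its local background median. The deposited value table holds the same intensities divided by 1 factor per array. The sources used here name no scanner software or genome build. Gene spots with a contamination, irregular-shape or mask flag were left out (206 to 1634 per array), and control spots were left out. Intensities were quantile normalized (limma 3.58.1, R 4.3.3), floored at the 5th percentile of positive values (4.5, or 2.17 in log2) and put on the log2 scale. Probes entered the two-sided limma test (lmFit, eBayes) if every array of some genotype had them above background, which 23389 did. Accessions were matched to RefSeq (GRCm38.p6), which named 14763 probes. For Plvap and Nr2f2, with 2 probes, the probe of higher mean stands for the gene. Homozygous embryos were compared with all 5 others, and the 3 genotypes pairwise.

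All members are named, by role. Differences are printed for members with an unadjusted p under 0.05 or no overlap in the first comparison, and levels for the rest. The members and lists were chosen with earlier results of these data known. The method was tested on simulated data. The number of arrays limits the precision. Alternatives were other scalings, floors, filters, background correction, priors, weights, probe averaging, a Y-linked covariate and each embryo left out.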

Additional observations from a re-analysis of the deposited data

Results flagged for a closer look

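Among the 5 wild type and heterozygous embryos, Acvrl1 had a log2 level of 6.30 in wild type embryo 11, against 6.59 to 6.69 in the 4 others. The gap was 0.736 of the whole range. Of 30 genes checked in this way 1 stood out, and chance alone marks about 1 in 20.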

How the results depend on the processing

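No paired analysis was possible because the sources used here do not say which embryos were littermates. On the probe that stands for each gene, no member passed in any comparison under any of the 20 alternatives. The dimmer probes of Nr2f2 and Plvap were not followed there, except within the mean of a gene's probes. The smallest limma adjusted p of a member against the 5 other embryos ranged from 0.0516 to 0.277. The 11 members with printed differences kept their sign in all 19 alternatives run for that comparison. Scaling moved the summaries. Under median scaling the median member difference was 0.016 against the other embryos, -0.06 against wild type and 0.026 against heterozygous. There 3 members were higher and 2 lower without overlap, against 1.82% and 16.3% of all probes. In the deposited scaled values the median member difference was -0.018, -0.094 and -0.0074. There 2 members were higher and 4 lower without overlap, against 1.45% and 17.8% of all probes. With one embryo left out, 7 to 10 members were higher and 2 to 4 lower without overlap, 10 without embryo 10 or 2 and 4 without embryo 16, while the share over all probes ranged from 5.28% to 9.47% higher and from 10.5% to 18.3% lower. The median member difference against the other embryos ranged from 0.10 to 0.22, and was 0.21, 0.22 and 0.22 without embryos 11, 2 and 7. The alternatives for the counts without overlap and for all probes that passed were chosen after seeing the data. The count of all probes ranged from 5 to 314 around 25 for that comparison (5 without embryo 13 or 15, 314 without embryo 7). It ranged from 0 to 208 around 8 against wild type (0 without embryo 11, 208 with array weights), from 4 to 58 around 5 for homozygous against heterozygous, and from 0 to 3 around 0 for heterozygous against wild type. Without a wild type embryo, the lone one is assumed to vary like the other groups. Under the filter of probes above background on all 8 arrays, 27 members were left. Spots near background limit Angpt1, Cdh5, Erg and Dll4. Angpt2 and Thbd were above background on all arrays but are dim too. With normexp background correction and an added offset of 50, their differences were -0.21 and -0.26. The limma adjusted p-values there were 0.168 and 0.139. The offset narrows log2 differences of dim spots by arithmetic, so these sizes cannot be set beside those of the main scaling.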
